A study of Mus musculus with 6 samples.

Results

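A set of 10 genes used as markers of muscle satellite cells or of their quiescent state were followed across 6 RNA-seq libraries of C2C12, a line of mouse myoblasts that stops dividing and forms multinucleate myotubes in low serum. The genes were found by name in the deposited count table, and each of the 10 had exactly 1 of its 55804 rows. They were the transcription factor genes Pax7 and Pax3, the surface glycoprotein genes Cd34, Vcam1 and Ncam1, the syndecan genes Sdc3 and Sdc4, and the receptor genes Cxcr4, Calcr and Megf10. The 3 Ctrl-gRNA libraries came from C2C12 cells with a control guide RNA, labelled WT, and the 3 Prr33-gRNA libraries from C2C12 cells labelled PRR33 knocked down, made with CRISPR/Cas9 and a guide RNA against Prr33. Both groups were moved from a medium rich in fetal bovine serum to differentiation medium with little horse serum and were collected after 3 days there. The comparison asks how the marker genes stand in differentiating cells with and without the Prr33 guide. The labels name no second line per guide, so an effect of the guide and a difference between derived lines cannot be told apart.

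Satellite cells are the resident stem cells of skeletal muscle. They lie between the fibre and its basement membrane, stay quiescent until injury, and then re-enter the cell cycle as myoblasts. Pax7 maintains them, and surface proteins such as Vcam1, Cxcr4 and Cd34 are used to sort them. C2C12 cells descend from such cells but grow as committed myoblasts, so the genes were read here as single transcripts in a differentiating line, not as counts of stem cells.

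Total counts ran from 17006381 to 19471762 per library. Levels are CPM (counts scaled to library size with TMM factors) unless FPKM, which is also divided by gene length, is named, and log2 fold changes are Prr33-gRNA minus Ctrl-gRNA. Prr33 itself was lower, at 58.6 ± 3.76 CPM (SD, n = 3) in Ctrl-gRNA and 43.8 ± 1.82 CPM (SD, n = 3) in Prr33-gRNA. The cells carried muscle transcripts in both groups: the intermediate filament gene Des stood at 139 ± 3.86 and 64.5 ± 5.43 CPM, and Cdh15, which encodes M-cadherin, at 381 ± 20.0 and 346 ± 26.7 CPM. The defining satellite cell gene Pax7 was at most 2.16 CPM in any library and Calcr had 0 counts in all 6, so the libraries carried little or none of these 2 markers.

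Most of the markers were lower in Prr33-gRNA, 2 of them by at least 10-fold. Cd34 fell 36.3-fold and Sdc3 fell 10.2-fold, Pax7 and Megf10 fell 2.62-fold and 2.07-fold, and Vcam1 and Ncam1 fell by smaller amounts. Cxcr4 and Sdc4 rose, and Pax3 did not pass the test. Of the 10 members, 9 passed the filter on low counts. Among these 2 were higher and 6 lower (edgeR adjusted p below 0.05), where 25.5% of all 14651 tested genes were higher and 26.6% lower. With 52.1% of tested genes called, a call does not set a marker apart from the rest. By size, 4 members were called with a change of at least 1 on the log2 scale in either direction, as were 10.9% of tested genes. Libraries of the 2 groups did not overlap for 8 of the 9 tested members, against 57.9% of all tested genes. The median log2 fold change was -0.38 over the 9 and 0.00 over all tested genes, whose quartiles were -0.32 and 0.24. In bulk RNA fewer cells of a type and less RNA per cell cannot be told apart.

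**Figure D1:**
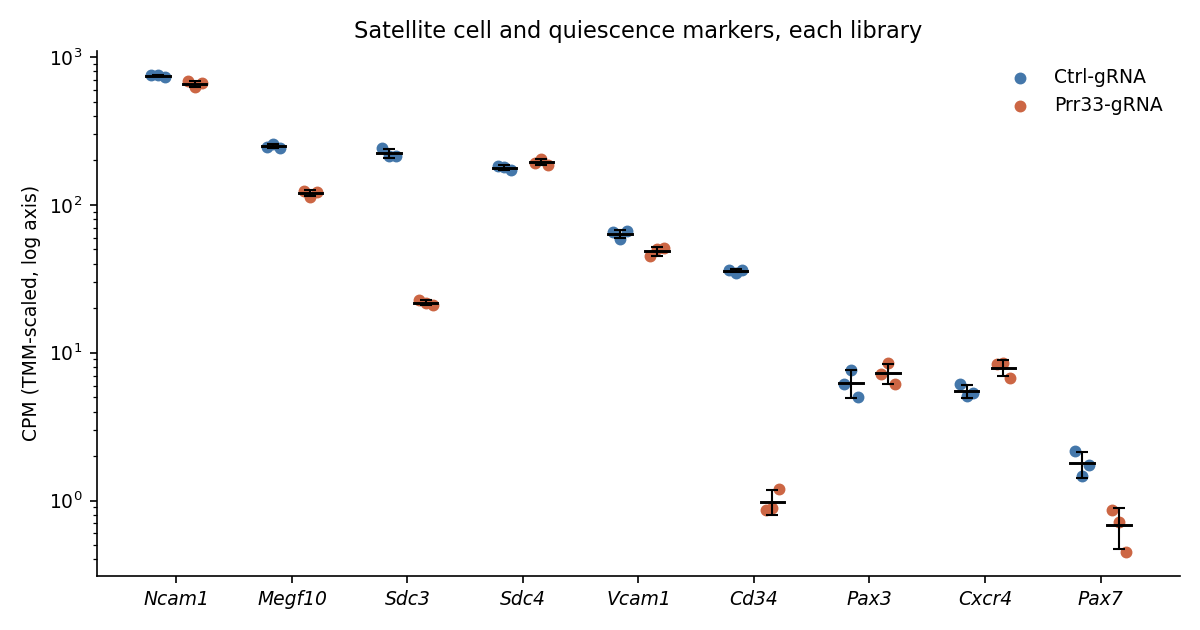
Level of the 9 tested markers in each library, as CPM on a log axis, with bars for the mean and SD of the 3 libraries of a group. Cd34 drops from about 35.8 to 0.985 CPM and Sdc3 from 223 to 21.8 CPM, while the Pax3 groups overlap. Calcr, with 0 counts in each library, is not drawn.

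**Figure D2:**
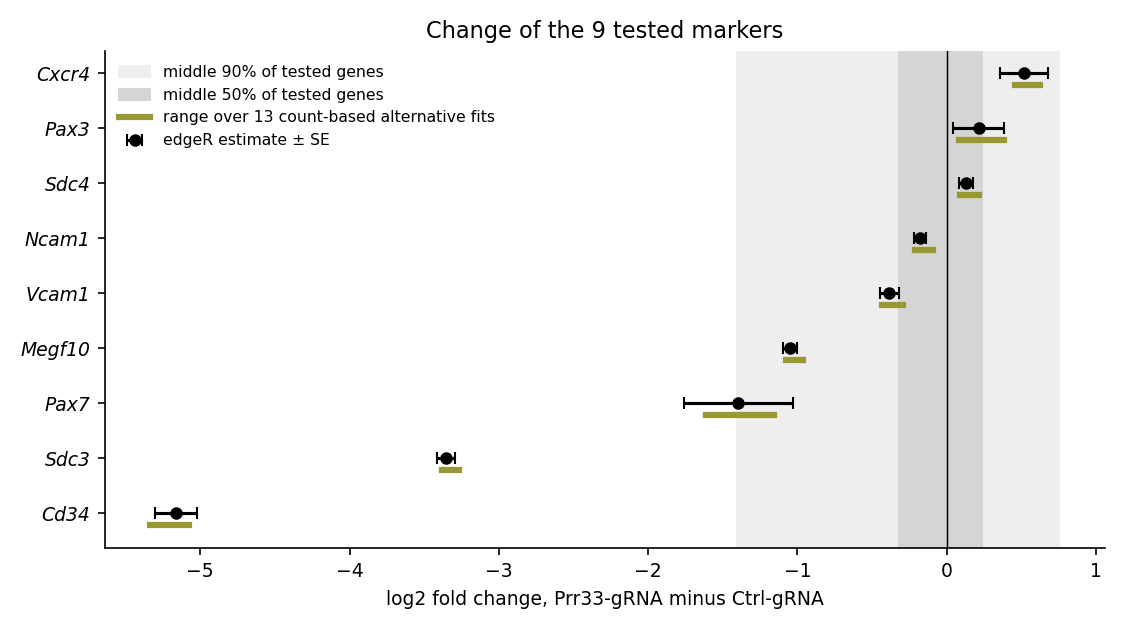
Log2 fold change of each tested marker, Prr33-gRNA minus Ctrl-gRNA, with its SE (black) and the range over 13 count-based alternative fits (olive), over the spread of all tested genes (grey). Cd34 at -5.16 and Sdc3 at -3.35 lie far to the left of the grey band, and the other 7 lie between -1.40 and 0.52.

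The start-site regions are shown for the 2 markers with the deepest falls and the 2 that rose, to set their base composition side by side. They are given 5′ to 3′ on the strand of the gene, from 250 bases before to 50 bases after the RefSeq start (GRCm38.p6). Capitals mark GC boxes (GGGCGG, either strand) and TATA boxes (TATAAA, either strand). Cd34 lies at chr1:194938571-194938870 (plus strand), Sdc3 at chr4:130792287-130792586 (plus), Sdc4 at chr2:164443139-164443438 (minus) and Cxcr4 at chr1:128592250-128592549 (minus).
Cd34: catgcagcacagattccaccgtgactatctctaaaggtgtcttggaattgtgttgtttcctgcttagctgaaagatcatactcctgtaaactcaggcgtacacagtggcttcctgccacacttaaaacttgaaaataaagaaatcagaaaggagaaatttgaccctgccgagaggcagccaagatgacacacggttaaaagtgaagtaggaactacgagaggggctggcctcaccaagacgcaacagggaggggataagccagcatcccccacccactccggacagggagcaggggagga
Sdc3: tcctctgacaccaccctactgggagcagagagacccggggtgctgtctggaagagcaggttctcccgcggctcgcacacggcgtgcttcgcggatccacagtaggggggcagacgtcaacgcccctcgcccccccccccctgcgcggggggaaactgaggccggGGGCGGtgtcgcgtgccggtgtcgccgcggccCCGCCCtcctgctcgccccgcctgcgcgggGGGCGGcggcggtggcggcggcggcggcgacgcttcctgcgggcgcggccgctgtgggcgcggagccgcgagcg
Sdc4: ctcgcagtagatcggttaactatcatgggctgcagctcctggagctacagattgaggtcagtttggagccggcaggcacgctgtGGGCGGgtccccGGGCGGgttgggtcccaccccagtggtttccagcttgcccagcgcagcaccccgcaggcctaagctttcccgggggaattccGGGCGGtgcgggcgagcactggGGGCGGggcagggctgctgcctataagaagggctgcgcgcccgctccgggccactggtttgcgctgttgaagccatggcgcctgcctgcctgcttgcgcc
Cxcr4: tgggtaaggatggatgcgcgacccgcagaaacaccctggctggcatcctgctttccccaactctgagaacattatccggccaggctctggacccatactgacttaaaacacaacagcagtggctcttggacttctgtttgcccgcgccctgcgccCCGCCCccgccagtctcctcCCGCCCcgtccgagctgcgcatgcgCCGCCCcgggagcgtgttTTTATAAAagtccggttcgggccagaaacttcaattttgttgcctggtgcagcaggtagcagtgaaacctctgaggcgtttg

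Cd34 and Sdc3, the 2 markers with the deepest falls, differed in base composition at the start site. The Cd34 window held 50% G and C and 7 CpG dinucleotides, close to the medians of 52.7% and 7 over 32851 windows of the same length. The Sdc3 window held 77.7% G and C and 44 CpG dinucleotides, above the upper quartiles of 61.7% and 20. Sdc4 held 67.7% G and C with 22 CpG, and Cxcr4 59.3% with 20. GC boxes numbered 3 in Sdc3, 4 in Sdc4, 3 in Cxcr4 and 0 in Cd34, and 35.7% of all windows held at least 1. Cxcr4 alone among the 4 had TATA boxes, 2 overlapping matches beginning 32 and 30 bases before the start, and 13.6% of all windows held one. The 4 windows held no match, on either strand, to the E-box CANNTG (present in 72.3% of windows), its CAGCTG form, each match of which is also an E-box (16.3%), the RBPJ core TGGGAA (25.6%), the core of the interferon-stimulated response element (3.4%) or the kappa B form GGGNTTTCC (1.7%). That says only that these letters are not in these windows. Promoter windows were found for 6 of the 10 members, Pax7 and Calcr being the other two. Pax3, Vcam1, Ncam1 and Megf10 had none.

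Pax7 and Pax3 are paired-box transcription factors, Pax7 acting in adult satellite cells and Pax3 in the embryonic muscle progenitors and some adult muscles. Pax7 (chromosome 4, 139737062 to 139833528, minus strand, mm10) had 40, 24 and 29 counts with the control guide and 16, 13 and 9 with the Prr33 guide. Each Prr33-gRNA library was below each Ctrl-gRNA library. The level fell from 1.78 ± 0.357 to 0.680 ± 0.213 CPM (SD, n = 3), a log2 fold change of -1.40 (SE 0.36, edgeR adjusted p = 0.00152). The ratio of the group counts was 2.67, with an exact 95% counting interval of 1.81 to 4.0. Pax7 cleared the minimum of 0.566 CPM in all 3 Ctrl-gRNA libraries and in 2 of the Prr33-gRNA libraries, so it entered the test through the group in which it was higher, and its counts limit how firmly the size can be read.

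Pax3 (chromosome 1, 78101267 to 78197134, minus strand) was more abundant than Pax7 but still low. It had 114, 126 and 84 counts with the control guide and 133, 153 and 123 with the Prr33 guide, or 6.27 ± 1.32 and 7.28 ± 1.16 CPM. The groups overlapped. The log2 fold change was 0.21 with a 95% interval of -0.13 to 0.56 (edgeR adjusted p = 0.306), so a difference was not detectable at this depth and the interval takes in both a small fall and a rise. Pax3 had the higher FPKM of the pair in each library, by a factor of 2.70, 4.97 and 2.74 with the control guide and 7.87, 11.2 and 12.9 with the Prr33 guide. The factor was thus larger in every Prr33-gRNA library, with Pax7 in the denominator resting on 9 to 16 counts there.

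Cd34, a sialomucin of haematopoietic, endothelial and mesenchymal progenitors that quiescent satellite cells also carry, had the deepest fall among the markers. Its counts were 672, 575 and 606 with the control guide against 16, 16 and 24 with the Prr33 guide (chromosome 1, 194938819 to 194961279, plus strand). Levels in Ctrl-gRNA lay between 34.9 and 36.3 CPM, and those in Prr33-gRNA between 0.870 and 1.20 CPM. Every Prr33-gRNA library still had Cd34 reads above the level of 3 counts (0.150 to 0.166 CPM there). This gave a log2 fold change of -5.16 (SE 0.14, edgeR adjusted p = 7.39e-26), and 82 of the 14651 tested genes (0.56%) were called and fell at least that far. The antisense noncoding gene Gm16897 overlaps Cd34 and had 33 counts in Ctrl-gRNA and 13 in Prr33-gRNA over the group. The sources used here name no strand setting for the counting, so reads of the 2 cannot be told apart.

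Vcam1 and Ncam1 are adhesion molecules of the immunoglobulin superfamily. Vcam1, which binds the integrin made of the Itga4 and Itgb1 products and is a standard sorting marker of satellite cells, was 65.2, 59.0 and 66.8 CPM in Ctrl-gRNA and 45.0, 49.9 and 51.4 CPM in Prr33-gRNA (chromosome 3, 116109949 to 116129688, minus strand). The groups did not overlap, with a log2 fold change of -0.38 (SE 0.07, edgeR adjusted p = 6.72e-06). Ncam1, which is kept on differentiating myoblasts and myotubes, was the most abundant marker by CPM. Its values were 757, 755 and 737 CPM in Ctrl-gRNA and 690, 626 and 668 CPM in Prr33-gRNA (chromosome 9, 49502136 to 49798925, minus strand). All Prr33-gRNA values were below all Ctrl-gRNA values, by a log2 fold change of -0.18 (SE 0.04, edgeR adjusted p = 4.31e-04). Scaled by library size alone the Ncam1 value was -0.09 and no longer passed (edgeR adjusted p = 0.0552). Gene counts do not separate the membrane-spanning and lipid-anchored isoforms of Ncam1 or Vcam1.

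Sdc3 and Sdc4 encode syndecans, transmembrane proteoglycans whose heparan sulfate chains hold growth factors near their receptors. The 2 satellite cell syndecans moved apart. Sdc3 (chromosome 4, 130792537 to 130826319, plus strand) was 242, 214 and 213 CPM in Ctrl-gRNA and 22.6, 21.9 and 21.1 CPM in Prr33-gRNA, with no overlap. This gave a log2 fold change of -3.35 (SE 0.06, edgeR adjusted p = 8.59e-31), and 213 of the tested genes (1.45%) were called and fell at least as far. Sdc4 (chromosome 2, 164424247 to 164443887, minus strand) was 184, 179 and 171 CPM in Ctrl-gRNA and 192, 205 and 188 CPM in Prr33-gRNA. Its groups lay side by side without overlap, with a log2 fold change of 0.13 (SE 0.05, edgeR adjusted p = 0.0237). The Sdc4 call did not hold without Ctrl-gRNA replicate 2, Ctrl-gRNA replicate 3 or Prr33-gRNA replicate 2 (log2 fold changes of 0.13, 0.10 and 0.09, edgeR adjusted p = 0.0580, 0.0976 and 0.117).

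Set against the other 2 mouse syndecans on a per-length scale, the family shifted away from Sdc3. Sdc1 fell from 41.8 ± 2.08 to 22.2 ± 1.16 FPKM and Sdc2 from 120 ± 2.98 to 103 ± 3.30 FPKM (SD, n = 3, log2 fold changes of -0.92 and -0.22 in the count test). Sdc3 went from 37.0 ± 2.65 to 3.64 ± 0.137 FPKM and Sdc4 from 69.5 ± 2.38 to 76.2 ± 3.81 FPKM. The summed level of the 4 genes was 268 ± 3.88 FPKM in Ctrl-gRNA and 205 ± 2.28 FPKM in Prr33-gRNA. Within that sum Sdc3 made up 14.7%, 13.3% and 13.4% with the control guide and 1.86%, 1.77% and 1.69% with the Prr33 guide. Sdc4 made up 25.9% ± 0.541 and 37.2% ± 1.79. The shares of Sdc2 were 44.7% ± 1.71 and 50.2% ± 1.64, and those of Sdc1 15.6% ± 0.588 and 10.8% ± 0.460. No share overlapped between the groups, and each gave p = 0.1 in an exact two-sided permutation test over libraries (0.1 after adjustment over the 4 shares), the smallest value that 3 against 3 libraries allow.

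**Figure D3:**
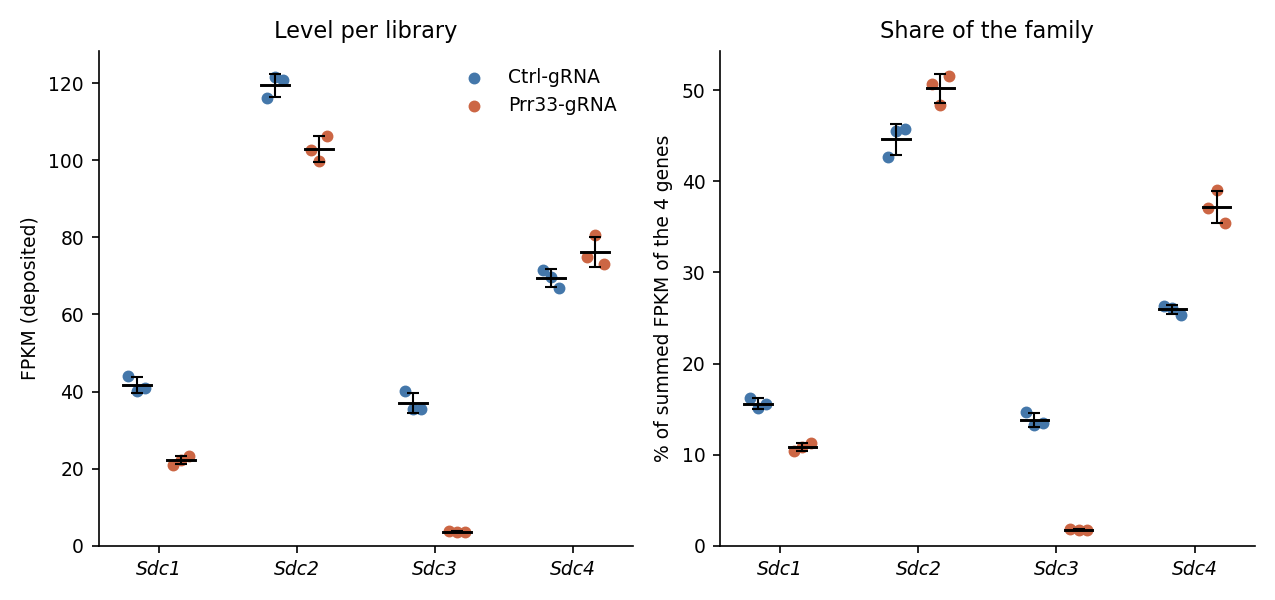
Deposited FPKM of the 4 syndecan genes (left) and the share of each in their sum (right) for each library, with mean and SD bars. Sdc3 falls from 37.0 to 3.64 FPKM and from 13.8% to 1.77% of the sum, and Sdc4 goes from 25.9% to 37.2%.

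The receptors split in direction. Cxcr4, the chemokine receptor that guides migrating muscle progenitors towards Cxcl12, had 114, 84 and 89 counts with the control guide and 155, 155 and 135 with the Prr33 guide (chromosome 1, 128588199 to 128592293, minus strand). That is 5.52 ± 0.568 and 7.92 ± 1.01 CPM, without overlap. The log2 fold change was 0.52 with a 95% interval of 0.19 to 0.84 (SE 0.16, edgeR adjusted p = 0.00754). Megf10, a multiple-EGF-repeat receptor that satellite cells carry and that is mutated in an inherited myopathy, went the other way. It was 246, 257 and 243 CPM in Ctrl-gRNA and 124, 113 and 123 CPM in Prr33-gRNA (chromosome 18, 57133090 to 57297467, plus strand). The lowest Ctrl-gRNA library stood well above the highest Prr33-gRNA library, at a log2 fold change of -1.05 (SE 0.05, edgeR adjusted p = 1.64e-19). Calcr, the calcitonin receptor through which collagen V keeps satellite cells quiescent, had 0 counts in each library (chromosome 6, 3685680 to 3764714, minus strand). Zero reads allow a level of up to 0.150 to 0.182 CPM, from 3 counts in a library, so no comparison between the groups is possible for Calcr.

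Ranked by FPKM in the Ctrl-gRNA libraries, the order was Ncam1 (85.8), Sdc4 (69.5), Sdc3 (37.0), Megf10 (32.0), Vcam1 (7.12), Cd34 (4.87), Cxcr4 (3.03), Pax3 (1.01) and Pax7 (0.302), and each neighbour pair was separated by its libraries. In Prr33-gRNA the order was Sdc4 (76.2), Ncam1 (76.1), Megf10 (15.5), Vcam1 (5.48), Cxcr4 (4.37), Sdc3 (3.64), Pax3 (1.17), Cd34 (0.135) and Pax7 (0.116). There Sdc4 and Ncam1 overlapped, as did Cxcr4 with Sdc3 and Cd34 with Pax7. Sdc3 thus moved from the third place to the sixth, and Cd34 to the level of Pax7.

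Ligands and partners of the surface markers were called in both directions. Of 25 listed genes 17 were tested, 4 higher and 9 lower, with a median log2 fold change of -0.45. Calls covered 76.5% of those tested, against 52.1% of all tested genes, of which 25.5% were higher and 26.6% lower. Cxcl12, the ligand of Cxcr4, was 27.1, 26.1 and 23.6 CPM in Ctrl-gRNA and 1.79, 2.55 and 1.90 CPM in Prr33-gRNA, so ligand and receptor moved in opposite directions. Cxcl12 had a log2 fold change of -3.62 (SE 0.14, edgeR adjusted p = 2.40e-21). Itga4, the integrin subunit that binds Vcam1, fell from 25.5 ± 0.568 to 5.06 ± 0.593 CPM, and its log2 fold change was -2.33. The 3 collagen V genes, whose product is the satellite cell ligand of Calcr, did not move together. Col5a2 rose from 445 ± 12.99 to 974 ± 22.3 CPM (log2 fold change 1.13). Col5a1 fell from 612 ± 28.4 to 410.5 ± 10.1 CPM (-0.58), and Col5a3 fell from 129 ± 2.55 to 87.6 ± 6.25 CPM (-0.56). St8sia4, one of the enzymes that add polysialic acid to Ncam1, was named here after its values were seen. It had 233 counts in Ctrl-gRNA and 3 in Prr33-gRNA, a ratio of 84.7. The exact 95% counting interval of 28.6 to 414 covers counting error only, not the spread between libraries. With 3 counts over the Prr33-gRNA libraries, St8sia4 could pass the filter on low counts only through Ctrl-gRNA. St8sia2, the other such enzyme, had 0 and 1 counts. The number higher was 2 without Ctrl-gRNA replicate 1, Ctrl-gRNA replicate 2 or Prr33-gRNA replicate 1.

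Enzymes that build and edit heparan sulfate, the chains carried by the syndecans, split in direction. Of 18 listed genes 15 were tested, 5 higher and 7 lower, with a median log2 fold change of -0.07. Calls covered 80% of those tested, against 52.1% of all tested genes. Ext1, a chain polymerase, fell from 220 ± 5.80 to 127 ± 7.34 CPM (log2 fold change -0.80), and Sulf2, an extracellular sulfatase, from 39.96 ± 1.70 to 23.3 ± 1.28 CPM (-0.77). Extl3 (-1.003) and Ndst2 (-0.93) also fell. Both lie on chromosome 14, where 84.1% of tested genes were lower and where 0 of the 10 markers lie. The number higher was 3 without Ctrl-gRNA replicate 1 or Prr33-gRNA replicate 1 and 2 without Ctrl-gRNA replicate 2.

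Other genes of satellite cells and myoblasts gave 4 higher and 11 lower among 23 tested of 28, with a median log2 fold change of -0.14. That is 65.2% called, against 52.1% of all tested genes. Itm2a, a membrane protein gene that Pax3 activates in muscle progenitors, was 20.1, 20.2 and 25.01 CPM in Ctrl-gRNA and 0.326, 0.609 and 0.1001 CPM in Prr33-gRNA. Its 1124 against 19 counts gave a ratio of 64.5 with an exact 95% counting interval of 41.1 to 108. The interval covers counting error only. With 6, 11 and 2 counts in the Prr33-gRNA libraries, Itm2a entered the test through Ctrl-gRNA. Pax3 itself did not pass the test, and a link between the 2 genes was not tested. Myf5, a myogenic factor present in most satellite cells and a Pax7 target, rose from 76.5 ± 0.627 to 153 ± 7.75 CPM. Met, the receptor of hepatocyte growth factor that wakes satellite cells, rose from 65.4 ± 2.97 to 117 ± 1.08 CPM (log2 fold change 0.84).

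Among 11 co-factors of Pax7 and Pax3, each of them tested, 6 were higher and 1 lower, with a median log2 fold change of 0.16. Kmt2d, a histone H3 methyltransferase, had -0.43, while Nedd4, a ubiquitin ligase that targets Pax7, had 0.20, Usp7 0.25 and Dcaf1 0.20. Among 20 quiescence regulators 5 were higher and 8 lower, with a median of -0.09 and 65% called. Notch3 fell from 135 ± 9.79 to 51.4 ± 1.504 CPM and Notch1 from 33.2 ± 0.641 to 12.6 ± 1.03 CPM, both receptors of the pathway that holds satellite cells in quiescence. Socs3, a feedback inhibitor of cytokine signalling, and Gas1, a growth-arrest gene, had log2 fold changes of -1.37 and -0.56. The genes named from the quiescence list are those with the lowest adjusted p, and each was lower. Across that list 7 genes were not called, and log2 fold changes ran from -1.40 to 0.46. The list of activation and differentiation genes gave 3 higher and 8 lower of 12 tested, with a median of -0.56, and its Myh3, Myod1, Cdkn1a and Myog had -1.26, -1.59, -0.88 and -1.63. In number, more genes were lower than higher both among the satellite cell markers and in this list. Of all tested genes 25.5% were higher and 26.6% lower, and both lists were chosen with earlier results of these data known.

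**Figure D4:**
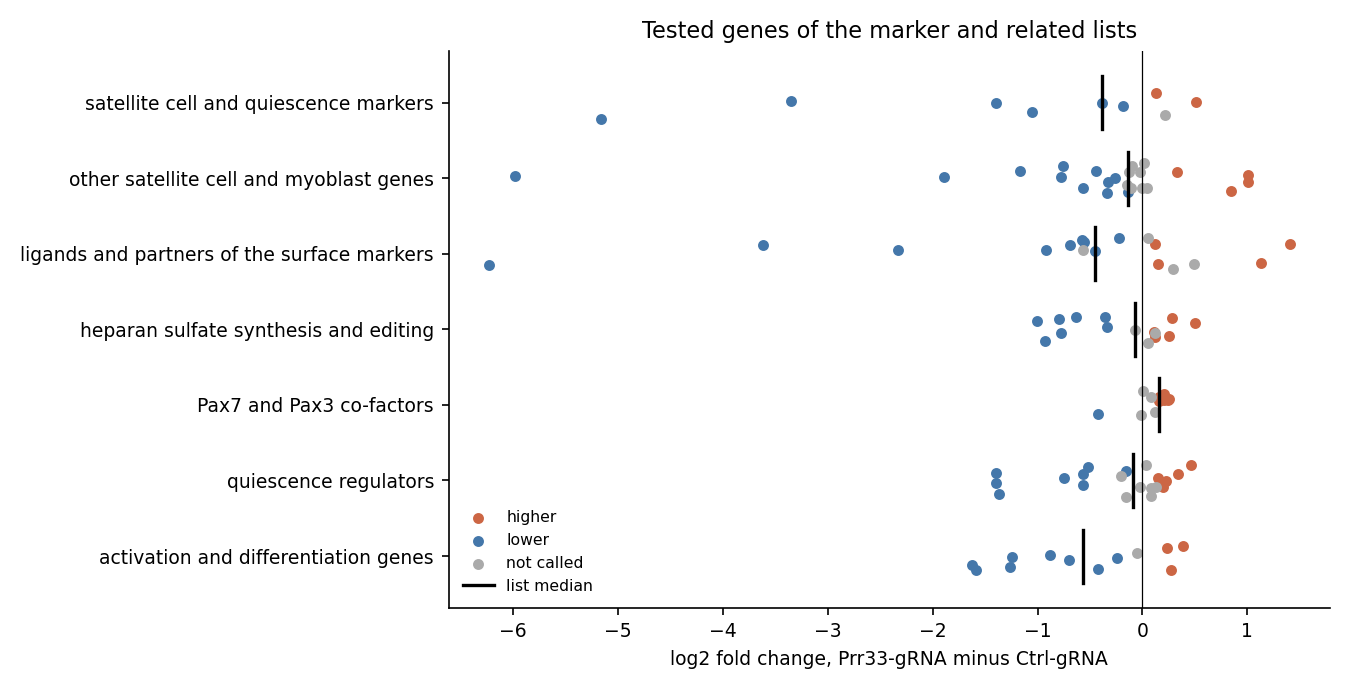
Log2 fold change of each tested gene of the marker list and the 6 related lists, Prr33-gRNA minus Ctrl-gRNA, coloured by its call, with a black line at the list median. The markers span -5.16 to 0.52, and the co-factors of Pax7 and Pax3 keep within -0.43 and 0.25.

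Several of these markers are shared with other cell types, so lists for 5 of those were read beside them. Endothelial genes, which would go with Cd34 and Vcam1, summed to 1.30 to 2.62 CPM in Ctrl-gRNA and 1.15 to 2.18 CPM in Prr33-gRNA, with Tie1, Emcn and Erg at 0 in all 6 libraries. The most abundant, Cldn5, was at 1.06 and 1.01 CPM, and Kdr had 38 and 0 counts. Haematopoietic genes summed to 1.13 to 1.82 and 0.901 to 1.55 CPM, with Ptprc, Adgre1, Cd52 and Tyrobp at 0, Cd68 at 1.39 and 1.25 CPM and Csf1r at 4 and 0 counts. The endothelial and haematopoietic lists thus held few reads in both groups, while Cd34 stood at 35.8 CPM in Ctrl-gRNA and 0.985 CPM in Prr33-gRNA. A part of such cells in the Cd34 difference was not tested. Fibroblast and fibro-adipogenic genes, which share Cd34 with satellite cells, summed to 1709 to 1845 CPM in Ctrl-gRNA and 786 to 851 CPM in Prr33-gRNA. Most of the sum came from Col3a1 and Ly6a in Ctrl-gRNA and from Col3a1 in Prr33-gRNA, so it follows these 2 genes more than the list. All 5 tested of 8 were lower, where 26.6% of all tested genes were. Col3a1 fell from 1117 ± 43.4 to 797 ± 31.7 CPM (log2 fold change -0.49) and Ly6a from 464 ± 16.3 to 4.76 ± 0.405 CPM. Pdgfra was also lower, with a log2 fold change of -0.49, and Lum was at 0. Pericyte genes summed to 196 to 222 and 78.6 to 86.6 CPM. Rgs5 was at 0 in Ctrl-gRNA and had reads only in Prr33-gRNA, too few to be tested. All 3 tested of 8 were lower, with log2 fold changes of -2.56 for Pdgfrb, -1.40 for Notch3 (also in the quiescence list) and -0.77 for Mcam. Neural crest genes summed to 25.3 to 30.6 and 19.3 to 24.4 CPM, with Sox10 and Foxd3 at 0. Of 8 such genes 3 were tested, 1 higher (log2 fold change 1.28) and 1 lower. Tubb3 was lower (log2 fold change -2.27) and Mitf did not pass (-0.04). The part of fibroblast or pericyte transcripts in the marker differences was not tested.

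The tested genes around Cd34 did not follow its fall. Within 100 kb of the 10 members 14 genes were tested, 2 of them higher and 2 lower. Of all tested genes 25.5% were higher and 26.6% lower. The 2 tested neighbours of Cd34, Cd46 and the noncoding A330023F24Rik, had log2 fold changes of -0.14 and 0.01 and did not pass. Beside Sdc4 the Golgi protein gene Sys1 was lower (-0.31), beside Calcr the gene Vps50 was higher (0.35), and beside Megf10 the noncoding gene 4930511M06Rik was lower (-0.88) while Prrc1 did not pass (-0.07).

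**Figure D5:**
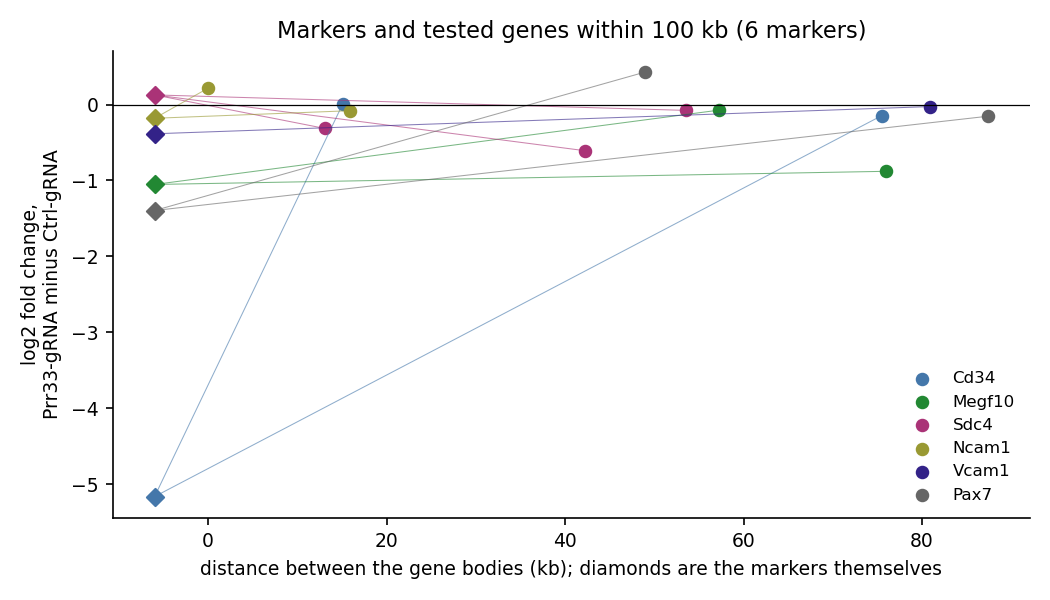
Log2 fold change of 6 markers (diamonds, left) and of tested genes within 100 kb of them (circles, placed by the distance between gene bodies in kb), Prr33-gRNA minus Ctrl-gRNA. The neighbours of Cd34 lie near 0, at -0.14 and 0.01, against -5.16 for Cd34.

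Out of 11511 protein-coding genes with a mean of 1 CPM or more, those whose centred log2 CPM over the 6 libraries lay closest to Cd34 were Oas2, Raet1d and Trim30c, at root mean square distances of 0.13, 0.16 and 0.16. Oas2, an oligoadenylate synthetase gene, went from 175 ± 7.14 to 4.76 ± 0.140 CPM. Raet1d went from 170 to 0 counts and Trim30c from 234 to 1, and both have near-identical relatives, so their counts are uncertain. The log2 CPM used for the distances carried a prior count of 2, which compresses values near 0. In the count test Raet1d and Trim30c had log2 fold changes of -8.89 and -7.53, beyond the -5.16 of Cd34. Both reached a mean of 1 CPM only through Ctrl-gRNA. Closest to Sdc3 were Ifi44, Bst2 and Irf7, at 0.08, 0.08 and 0.11. Ifi44 went from 350 ± 15.1 to 35.8 ± 0.790 CPM, Bst2, which encodes the membrane protein tetherin, from 753 ± 18.3 to 72.1 ± 3.71 CPM and the transcription factor gene Irf7 from 408 ± 28.3 to 36.3 ± 3.91 CPM. With 2 groups, such closeness reflects mainly a like difference between the groups.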

How the data were processed

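RNA-seq was made from 6 C2C12 libraries, 3 per guide, grouped by sample title. Whole-number counts per gene and FPKM per gene were deposited by the authors. CASAVA, HISAT2 2.0.5, featureCounts 1.5.0-p3 and the mm10 build are named, without roles, in the submitters' processing notes. Strand setting and annotation release are not given in the sources used here. Per the file headers each gene has a length in bases, and 333 rows are gene models with no Ensembl ID, which were kept.

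The marker genes and the related lists were chosen with earlier results of these data known. Counts were tested across the whole table with edgeR 4.0.16 in R 4.3.3 (filterByExpr, TMM, robust quasi-likelihood F test, 2 groups, Benjamini-Hochberg adjustment over 14651 genes, threshold 0.05). The SE is the absolute log2 fold change over the square root of F. The fit was tested on simulated data in which few genes changed, all of them well counted, with the same spread set for every gene. That test does not cover counts as low as those of Pax7, or a share of genes called as large as here. FPKM served for comparing levels between genes. Counting intervals and floors cover counting error only. No label says whether the 3 libraries of a guide are separate cultures, so p-values cover only the spread between them, which may be technical. Within a group no pair of libraries matched within counting noise (chi-square of 2.89 to 5.68 per gene).

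Named were Prr33, the 10 markers, up to 4 called genes per related list by lowest adjusted p, the 2 most abundant genes per other-cell list, called neighbours within 100 kb and the 3 genes closest to each of the 2 markers with the largest change. Genes named outside this rule, such as St8sia2 or those at 0, were picked after their values were seen. A few results that the rule would name are not reported here. Promoter windows are RefSeq's on GRCm38.p6. Alternatives were RLE factors, library size alone, DESeq2 1.42.0, limma-voom (limma 3.58.1), other filters, limma on log2(FPKM + 1) or log2(FPKM + 0.1), a replicate block, stricter thresholds and leaving out each library. Figures used matplotlib 3.10.9.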

Additional observations from a re-analysis of the deposited data

How the results depend on the processing

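Each of the 9 tested markers kept its direction in all 15 alternative fits, and for Pax7, Pax3, Vcam1, Sdc3, Cd34, Cxcr4 and Megf10 the call was the same in each. Count-based fits gave -5.33 to -5.08 for Cd34, -3.38 to -3.26 for Sdc3, -1.61 to -1.16 for Pax7, -1.07 to -0.96 for Megf10, -0.43 to -0.30 for Vcam1, 0.46 to 0.62 for Cxcr4 and 0.08 to 0.38 for Pax3. Pseudocounts shrink low genes by construction: log2(FPKM + 1) gave -2.37 for Cd34 and -0.22 for Pax7, and log2(FPKM + 0.1) gave -4.41 and -0.90. Sdc4 missed the threshold at 0.13 (limma adjusted p = 0.0517 and 0.0509) on the 2 FPKM scales, at 0.13 with an adjusted p required below 0.01, and lay between 0.09 and 0.16 in the fits without 1 library. Ncam1 missed it at -0.0919 under library size alone, where the median of all genes moved to 0.09. Markers called higher numbered 1 on either FPKM scale and at an adjusted p below 0.01, 0 where a log2 change of 1 or more was also required, and 1 to 2 without single libraries. For ligands and partners the number higher was 2 on either FPKM scale and below 0.01, and 2 to 4 without single libraries. For heparan sulfate genes it was 3 in DESeq2, 2 below 0.01 and 2 to 5 without single libraries. Except where the setting itself drops calls, the cause was not tested. Of 226 such counts 208 were within 1.5 times. Deviations of same-numbered libraries were uncorrelated (-0.01, -0.01 and 0.02), so no pairing by number was seen, and the labels do not say whether there is one. A replicate block gave 2 markers higher and 6 lower, with Sdc4 at 0.13. Depth limits Pax7 (9 to 40 counts) and Calcr (0 counts).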
